A study of Homo sapiens with 6 samples.

Results

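The levels of 33 genes of homologous recombination and the Fanconi anaemia pathway were examined in KHOS and U-2OS cells, 2 lines from human osteosarcoma, a bone tumour. The genes were chosen by name and function, with earlier results of these data known. Cells of each line were transfected with 40 nM siRNA against the kinase CDK11 or with 40 nM nonspecific siRNA, or were left untransfected. CDK11 is a kinase, encoded by CDK11A and CDK11B, that acts in transcription and RNA splicing. RNA was collected 48 h after transfection, pooled from 3 flasks, and hybridised to 1 Affymetrix U133 Plus 2.0 array for each condition and line, which makes 6 arrays. All groups thus came from tumour lines, and each condition had 1 array a line, so no test was possible within a line and the 2 lines served as the only repeats.

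Homologous recombination repairs broken DNA from an intact sister copy. The break is trimmed to single-stranded DNA, the BRCA1, BARD1 and PALB2 proteins help to start the exchange of strands, and helicases then take apart the joined molecules. The Fanconi anaemia pathway acts ahead of these steps where DNA strands are cross-linked. Its core complex, with the ubiquitin ligase FANCL and the conjugating enzyme UBE2T, attaches ubiquitin to a clamp that contains FANCI, and the deubiquitinase USP1 removes it. The kinases ATM, ATR, CHEK1 and CHEK2 signal that DNA is broken or that replication has stalled. Many of these genes are transcribed mostly in cells that are copying their DNA.

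Probe sets were kept if at least 1 of the 6 arrays gave over 6.64 on the log2 scale, a signal of 100. Of the 33 members, 29 had a probe set with that gene symbol alone, and 26 had at least 1 kept probe set, 38 of 62 in all. The whole series held 54675 probe sets, of which 16397 were kept, for 8878 genes. BRCA2, RBBP8, FANCA and FANCD2 were not analysed here. XRCC2, XRCC3 and FANCF stayed below the limit, with highest values of 6.33, 3.39 and 4.71. XRCC2 was the nearest outside and FANCC, with a highest value of 6.99, the nearest inside. The brightest kept probe set stood for each gene, and every difference below is in log2 units of signal, so that 0.5 units lower means 70.7% left.

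The 2 kept probe sets of the CDK11 genes were low on both CDK11 siRNA arrays. The brighter one gave 7.64 with CDK11 siRNA, 9.92 with nonspecific siRNA and 9.69 without transfection in KHOS cells, and 6.24 with CDK11 siRNA, 8.88 with nonspecific siRNA and 8.97 untransfected in U-2OS cells. The dimmer one gave 5.16 with CDK11 siRNA, 7.48 with nonspecific siRNA and 7.16 untransfected in KHOS cells and 3.75 with CDK11 siRNA, 6.51 with nonspecific siRNA and 6.84 untransfected in U-2OS cells. Relative to nonspecific siRNA, 20.6% and 20.0% of the signal was left in KHOS cells and 15.95% and 14.8% in U-2OS cells. The arrays had medians between 2.92 and 2.98, with 24.8% to 25.9% of probe sets above 6.64. Arrays correlated at 0.977 to 0.990 within a line and 0.669 to 0.698 between lines. The mesenchymal genes VIM, COL1A1, SPARC and RUNX2 were above the limit in at least 1 array, whereas COL1A2 and the osteoblast genes ALPL and SP7 were at most 3.001 on every array. Of the epithelial markers, CDH1 was at most 2.38, and EPCAM, KRT8 and KRT18 passed the limit, with EPCAM reaching 8.997. The blood markers PTPRC, CD3E and CD14 were at most 2.997.

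In KHOS cells, CDK11 siRNA gave 8 of the 26 members a lower level than nonspecific siRNA by more than 0.5 units, and 0 a higher level by as much. Over all 8878 genes, 9.93% were lower and 8.39% higher by that margin. The 8 were BRCA1, FANCL, RMI1, BRIP1, FANCG, FANCB, EXO1 and PALB2, and 23 members had a difference below 0, where 49.6% of all genes did. The median difference of the members was -0.36, and that of all genes 0.0024. Against untransfected KHOS cells, 12 members (the same less PALB2, with BARD1, RAD51AP1, FANCC, FANCE and UBE2T) were lower by more than 0.5 and 0 higher, where 12.1% of all genes were lower and 11.9% higher, and the members' median was -0.45. The controls themselves differed less in these genes. Between nonspecific siRNA and untransfected KHOS cells, 0 members were lower or higher by more than 0.5, against 5.07% and 6.18% of all genes. The members' median was -0.12, and 20 of 26 members were below 0, where 47.97% of all genes were. The members were thus mostly lower without CDK11 siRNA too, by a smaller median than the -0.36 of CDK11 siRNA against nonspecific siRNA.

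U-2OS cells gave smaller differences. With CDK11 siRNA, 3 members (FANCE, FANCB and BRCA1) were lower than with nonspecific siRNA by more than 0.5 and 1 member, RAD54B, was higher, where 5.19% of all genes were lower and 5.7% higher. The median of the members was -0.11 and that of all genes 0.0087, and 17 of 26 members were below 0, where 48.2% of all genes were. Against untransfected U-2OS cells, 4 members (BRCA1, FANCB, FANCC and FANCE) were lower and 0 higher, with 8.02% of all genes lower and 6.72% higher, and the median was -0.24. Between nonspecific siRNA and untransfected U-2OS cells, 2 members, RAD54B (-1.11) and FANCC (-0.82), were lower and 0 higher, where 7.72% of all genes were lower and 5.34% higher. The members' median between these 2 controls was -0.15, and 19 of 26 members were below 0, where 50.9% of all genes were. The members were thus lower without CDK11 siRNA too, by a median no smaller than the -0.11 between the 2 siRNAs. Whether the lines differ in these counts could not be tested with 1 array a condition.

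**Figure D1:**
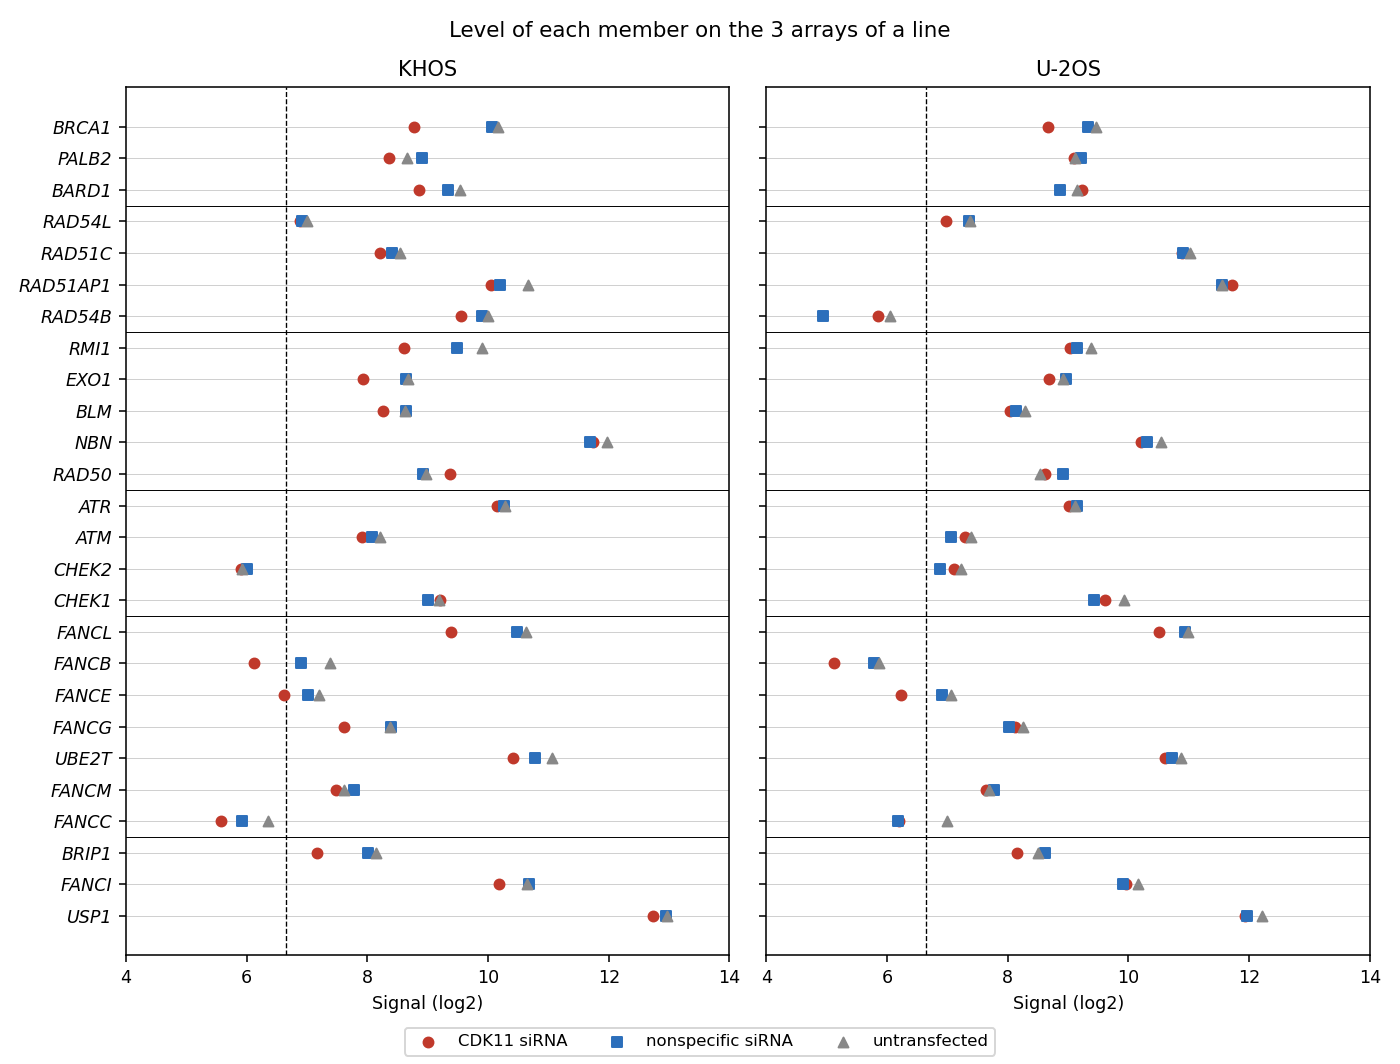
Log2 signal of the 26 kept members (rows, grouped by role) in KHOS cells (left) and U-2OS cells (right), with 1 array for each point: CDK11 siRNA (circles), nonspecific siRNA (squares) and untransfected (triangles). The dashed line marks the limit of 6.64, and in KHOS cells the circle lies left of both other points for 23 members, in U-2OS cells for 16.

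Within a line, each difference can be set beside the gap between the 2 controls. These are different treatments with 1 array each, so their gap holds any effect of transfection and is not a spread of repeats. In KHOS cells, the CDK11 siRNA array lay below both controls by more than that gap for 18 of 26 members, against 24.4% of all genes. In U-2OS cells the same held for 8 members, against 16.2% of all genes. Both lines gave this for 7 members, ATR, BRCA1, BRIP1, EXO1, FANCB, FANCE and FANCL, against 8.04% of all genes. A small gap lets small differences pass: ATR differed from nonspecific siRNA by -0.11 in KHOS and -0.14 in U-2OS cells, with gaps of 0.02 and 0.03. By order alone, the CDK11 siRNA array was the lowest of 3 in both lines for 15 members, against 19.4% of all genes, and the highest of 3 in both lines for 0 members, against 19.4% of all genes. No member's difference from nonspecific siRNA passed 3 SD of all kept probe sets: 0 of 38 member probe sets lay outside -1.35 to 1.35 in KHOS cells or outside -1.07 to 1.12 in U-2OS cells, where 1.38% and 1.87% of all kept probe sets did. BRCA1 came nearest in KHOS cells, at -2.88 SD, and RAD54B in U-2OS cells, at 2.47 SD.

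Among BRCA1, BARD1 and PALB2, BRCA1 had the largest difference. BRCA1, a ubiquitin ligase that works as a pair with BARD1, had a level of 8.77 with CDK11 siRNA, 10.06 with nonspecific siRNA and 10.16 without transfection in KHOS cells. BRCA1 had 8.67 with CDK11 siRNA, 9.33 with nonspecific siRNA and 9.46 untransfected in U-2OS cells. On both CDK11 siRNA arrays BRCA1 was thus below both controls, with 40.8% of the nonspecific siRNA signal left in KHOS cells and 63.5% in U-2OS cells. PALB2, a binding partner of BRCA1, had 8.36 with CDK11 siRNA, 8.90 with nonspecific siRNA and 8.66 untransfected in KHOS cells and 9.09 with CDK11 siRNA, 9.21 with nonspecific siRNA and 9.12 untransfected in U-2OS cells. The U-2OS values of PALB2 lay close together. For BARD1, the partner of BRCA1, the difference between CDK11 siRNA and nonspecific siRNA was -0.48 in KHOS cells and 0.37 in U-2OS cells. The 3 kept probe sets of BARD1 gave -0.48, -0.26 and -0.48 in KHOS cells and 0.37, 0.52 and -0.36 in U-2OS cells, so its direction in U-2OS cells differed between probe sets.

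Of the 7 members besides BRCA1 beyond 0.5 in KHOS cells, 3 belonged to the Fanconi core complex. In KHOS cells, all 7 kept members, UBE2T included, were lower after CDK11 siRNA than after nonspecific siRNA, with a median of -0.39. Of these 7, 3 were lower by more than 0.5, where 9.93% of all genes were. Against untransfected KHOS cells, 6 of 7 were lower by more than 0.5, with a median of -0.76, where 12.1% of all genes were. In U-2OS cells 2 of 7 were lower by more than 0.5 than with nonspecific siRNA (median -0.13) and 3 of 7 than in untransfected cells (median -0.48). Of all genes, 5.19% and 8.02% were. The members counted in U-2OS cells were FANCB and FANCE, joined by FANCC against untransfected cells. In that line FANCB was below the limit on every array, FANCC passed it only untransfected and FANCE only on the controls. These U-2OS counts thus rest on dim signal. The count against untransfected KHOS cells also includes FANCC, which was below the limit on every KHOS array. Nonspecific siRNA alone gave medians of -0.20 in KHOS and -0.15 in U-2OS cells against untransfected cells, with 5 and 6 of 7 below 0. FANCL, the ubiquitin ligase of the complex, had 9.39 with CDK11 siRNA, 10.48 with nonspecific siRNA and 10.63 without transfection in KHOS cells, and 10.51 with CDK11 siRNA, 10.93 with nonspecific siRNA and 10.99 untransfected in U-2OS cells. The CDK11 siRNA array was the lowest in both lines, with 46.8% of the nonspecific siRNA signal left in KHOS cells and 74.9% in U-2OS cells.

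FANCB, a core subunit that binds FANCL, had 6.12 with CDK11 siRNA, 6.91 with nonspecific siRNA and 7.39 untransfected in KHOS cells and 5.12 with CDK11 siRNA, 5.78 with nonspecific siRNA and 5.87 untransfected in U-2OS cells. All 3 U-2OS values of FANCB were below the limit of 6.64, so its difference there rests on dim signal. FANCE, the subunit that contacts the clamp, had 6.62 with CDK11 siRNA, 7.01 with nonspecific siRNA and 7.21 untransfected in KHOS cells and 6.22 with CDK11 siRNA, 6.91 with nonspecific siRNA and 7.06 untransfected in U-2OS cells. FANCE had the lowest difference of the members in U-2OS cells, with 62.1% of the nonspecific siRNA signal left, and had 76.3% left in KHOS cells. FANCG, a scaffold subunit, had 7.61 with CDK11 siRNA, 8.40 with nonspecific siRNA and 8.37 untransfected in KHOS cells and 8.12 with CDK11 siRNA, 8.03 with nonspecific siRNA and 8.26 untransfected in U-2OS cells. FANCG was below both controls in KHOS cells, by 0.76 from the nearer, and lay between its controls in U-2OS cells. The others, FANCC, FANCM and UBE2T, differed from nonspecific siRNA by -0.36, -0.30 and -0.37 in KHOS cells and by 0.02, -0.13 and -0.11 in U-2OS cells.

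Of the genes around the ubiquitinated clamp, BRIP1 differed most. BRIP1, a helicase that binds BRCA1, had 7.17 with CDK11 siRNA, 8.01 with nonspecific siRNA and 8.14 without transfection in KHOS cells, and 8.15 with CDK11 siRNA, 8.62 with nonspecific siRNA and 8.51 untransfected in U-2OS cells. Its CDK11 siRNA array was the lowest in both lines, with 55.6% of the nonspecific siRNA signal left in KHOS cells and 72.3% in U-2OS cells. FANCI differed by -0.49 in KHOS cells and 0.05 in U-2OS cells. USP1, which removes ubiquitin from the clamp, differed by -0.22 in KHOS cells and -0.04 in U-2OS cells.

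Genes that process ends or dissolve joint molecules did not share 1 direction in KHOS cells. RMI1, a partner of the BLM helicase and of the topoisomerase TOP3A, had 8.61 with CDK11 siRNA, 9.49 with nonspecific siRNA and 9.89 untransfected in KHOS cells and 9.03 with CDK11 siRNA, 9.14 with nonspecific siRNA and 9.38 untransfected in U-2OS cells. In KHOS cells 54.4% of the nonspecific siRNA signal of RMI1 was left, and in U-2OS cells 92.1%. EXO1, an exonuclease that trims broken ends, had 7.92 with CDK11 siRNA, 8.64 with nonspecific siRNA and 8.67 untransfected in KHOS cells and 8.69 with CDK11 siRNA, 8.96 with nonspecific siRNA and 8.91 untransfected in U-2OS cells. Its controls differed by 0.03 in KHOS cells, where EXO1 was below them by 0.71. RAD50, which tethers broken ends, was the highest of the members in KHOS cells, with a difference of 0.44, and had -0.29 in U-2OS cells. BLM differed by -0.38 in KHOS cells and -0.09 in U-2OS cells. NBN, a partner of RAD50, differed by 0.05 in KHOS cells and -0.10 in U-2OS cells.

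RAD54B, RAD54L, RAD51C and RAD51AP1 differed less in KHOS cells, with a median of -0.18. RAD54B, a translocase of DNA, had 9.56 with CDK11 siRNA, 9.89 with nonspecific siRNA and 10.001 without transfection in KHOS cells. RAD54B had 5.86 with CDK11 siRNA, 4.93 with nonspecific siRNA and 6.04 untransfected in U-2OS cells, all below the limit of 6.64. The U-2OS value with CDK11 siRNA was higher than with nonspecific siRNA by 0.92 and lower than without transfection (difference -0.19), so the direction depended on which control was used. RAD51C, RAD51AP1 and RAD54L differed from nonspecific siRNA by -0.21, -0.15 and -0.03 in KHOS cells and by -0.02, 0.15 and -0.37 in U-2OS cells. By its brightest probe set, none of the checkpoint kinases differed by more than 0.5 in either line or against either control. Their differences from nonspecific siRNA ran from -0.17 (ATM) to 0.18 (CHEK1) in KHOS cells and from -0.14 (ATR) to 0.24 (ATM) in U-2OS cells. The dimmer kept probe set of ATM was higher, by 0.85 in KHOS and 0.56 in U-2OS cells. Against untransfected cells it gave 0.81 in KHOS and 0.13 in U-2OS cells, so the result for ATM depends on the probe set.

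**Figure D2:**
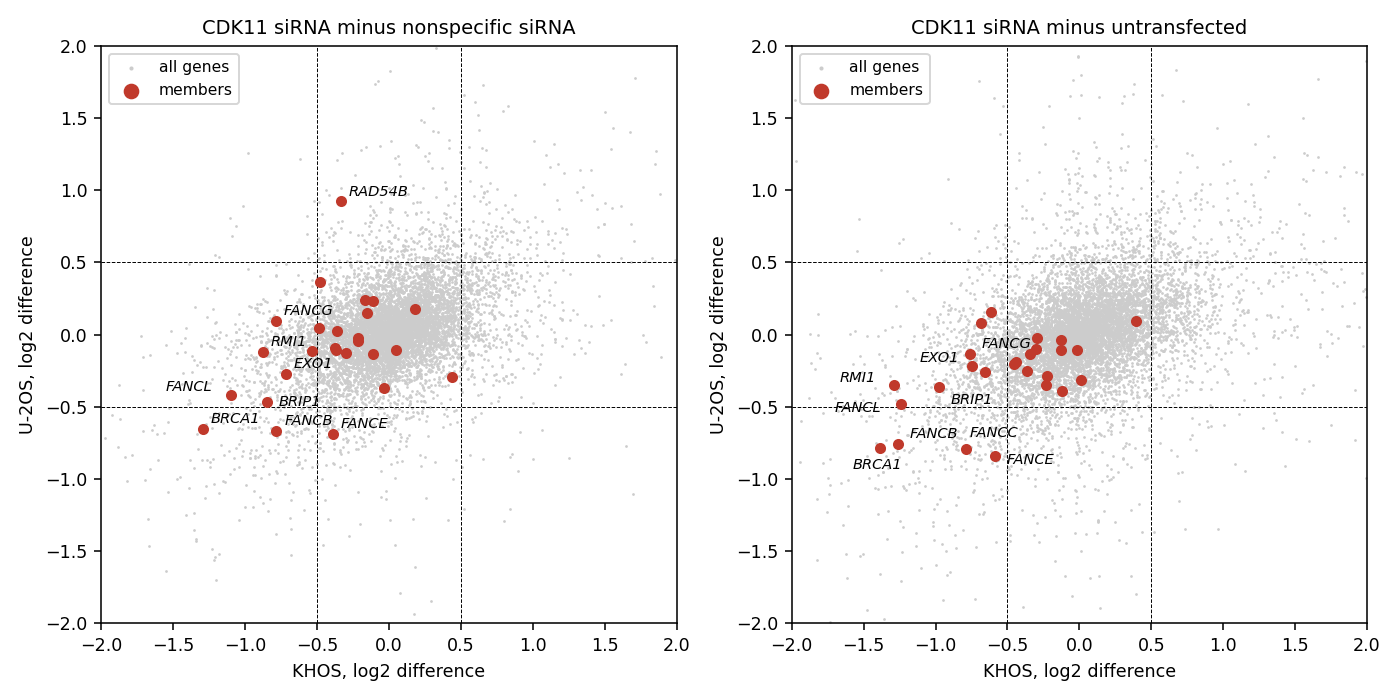
Log2 difference in KHOS cells (horizontal) and U-2OS cells (vertical) of CDK11 siRNA minus nonspecific siRNA (left) and CDK11 siRNA minus untransfected (right), with members in red, all 8878 genes in grey and dashed lines at -0.5 and 0.5. The members lie mostly left of 0 (medians -0.36 and -0.45 in KHOS cells), and 28 and 74 genes, none of them members, lie outside the axes.

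The 2 lines were alike in part. Of the 26 members, 15 had a lower level after CDK11 siRNA than after nonspecific siRNA in both lines, where 31.0% of all genes did, and 20 had a lower difference in KHOS than in U-2OS cells, where 52.4% of all genes did. Across these 26 genes the differences in the lines correlated with Pearson's r of 0.36 and Spearman's rho of 0.35, and over all 8878 genes with 0.45 and 0.43. These are correlations across genes, which are not independent replicates. The comparisons with nonspecific siRNA and with untransfected cells share the CDK11 siRNA arrays.

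With the 2 lines as repeats, limma gave no call for CDK11 siRNA against nonspecific siRNA: 0.0% of 8878 genes had an adjusted p under 0.05, and the smallest was 0.123. Without adjustment, 1205 genes (13.6%) had a p under 0.05, among them 6 members, all lower. BRCA1 had a mean difference of -0.97 (SE 0.20, limma adjusted p = 0.21) and was lower in both lines. The other 5 were FANCL with -0.76 (SE 0.22), FANCB with -0.72 (SE 0.16), BRIP1 with -0.66 (SE 0.18), FANCE with -0.54 (SE 0.13) and EXO1 with -0.49 (SE 0.17), with limma adjusted p between 0.236 and 0.336. Against untransfected cells 0.0% of genes were called, with 9 members at an unadjusted p under 0.05 of 1625 genes (18.3%), and the smallest adjusted p of a member was 0.127, for FANCB. Nonspecific siRNA against untransfected cells gave 0.0% called, with 751 genes (8.46%) at an unadjusted p under 0.05 and 1 member, FANCC. The fits had 2 residual degrees of freedom. A prior variance that follows the level called 119 genes (1.34%) and 0 members against nonspecific siRNA, and 279 genes (3.14%) and 1 member, BRCA1, against untransfected cells. For nonspecific siRNA against untransfected cells that prior called 5 genes (0.0563%) and 0 members.

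Genes in the same and neighbouring pathways were examined from lists chosen by function, also with earlier results of these data known. Of 30 further recombination and Fanconi genes, 6 had a level lower by more than 0.5 after CDK11 siRNA than after nonspecific siRNA in KHOS cells and 2 in U-2OS cells, with medians of -0.15 and -0.03. These are 20.0% and 6.67%, where 9.93% and 5.19% of all genes were lower by that margin. RMI2, a subunit beside RMI1 and BLM, had the largest difference of these in KHOS cells, and TOP3A in U-2OS cells. RMI2 had 6.75 with CDK11 siRNA, 8.63 with nonspecific siRNA and 8.57 without transfection in KHOS cells, and 6.95 with CDK11 siRNA, 7.74 with nonspecific siRNA and 8.52 untransfected in U-2OS cells. TOP3A, the topoisomerase that works with BLM, RMI1 and RMI2, had 5.77 with CDK11 siRNA, 6.74 with nonspecific siRNA and 6.59 untransfected in KHOS cells and 4.64 with CDK11 siRNA, 5.49 with nonspecific siRNA and 4.84 untransfected in U-2OS cells. RMI2 was thus lowest on the CDK11 siRNA array of each line, and TOP3A too, at dim signal.

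Other repair routes were set beside these. Over all genes, 9.93% in KHOS and 5.19% in U-2OS cells were lower by more than 0.5 after CDK11 siRNA than after nonspecific siRNA. In U-2OS cells 5.7% of all genes were higher, and against untransfected KHOS cells 12.1% were lower. Of 8 end joining genes, 1 was lower by more than 0.5 in KHOS cells (XRCC4, a ligase cofactor, -1.06) and 0 in U-2OS cells, with medians of -0.12 and 0.02, and 3 were lower against untransfected KHOS cells. Of 4 mismatch repair genes, 1 was lower in KHOS cells (MSH6, which recognises mismatches, -0.64) and 0 in U-2OS cells, with medians of -0.38 in KHOS and -0.14 in U-2OS cells, beside -0.36 and -0.11 for the members, and 1 was lower against untransfected KHOS cells. Of 30 base and nucleotide excision repair genes, 2 (6.67%) were lower in each line, no more than the share of all genes in KHOS cells, and 3 higher in U-2OS cells. Their medians were -0.21 in KHOS and -0.05 in U-2OS cells, and 7 were lower against untransfected KHOS cells.

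Genes of S phase, the stage in which DNA is copied, were lower alongside the members in KHOS cells. With CDK11 siRNA, all 23 were below nonspecific siRNA in KHOS cells, with a median of -0.56. Of them, 12 (52.2%) were lower by more than 0.5, where 9.93% of all genes were. In U-2OS cells 3 were lower and 2 higher by more than 0.5, with a median of -0.0037, where 5.19% of all genes were lower and 5.7% higher. MCM3, a subunit of the replicative helicase, had 9.23 with CDK11 siRNA, 10.78 with nonspecific siRNA and 10.91 untransfected in KHOS cells and 9.41 with CDK11 siRNA, 11.04 with nonspecific siRNA and 11.50 untransfected in U-2OS cells. CCNE1, the cyclin that drives entry into S phase, had 7.28 with CDK11 siRNA, 8.73 with nonspecific siRNA and 8.21 untransfected in KHOS cells and 8.94 with CDK11 siRNA, 9.92 with nonspecific siRNA and 9.25 untransfected in U-2OS cells. Of 19 genes of G2 and mitosis, 4 (21.1%) were lower by more than 0.5 in KHOS cells and 0 in U-2OS cells, with medians of -0.33 and 0.10. Against untransfected U-2OS cells the S phase median was -0.33 with CDK11 siRNA and -0.33 with nonspecific siRNA. Whether these genes have a part in the members' differences was not tested. In RNA of whole flasks, fewer cells in S phase and less RNA in each such cell cannot be told apart.

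**Figure D3:**
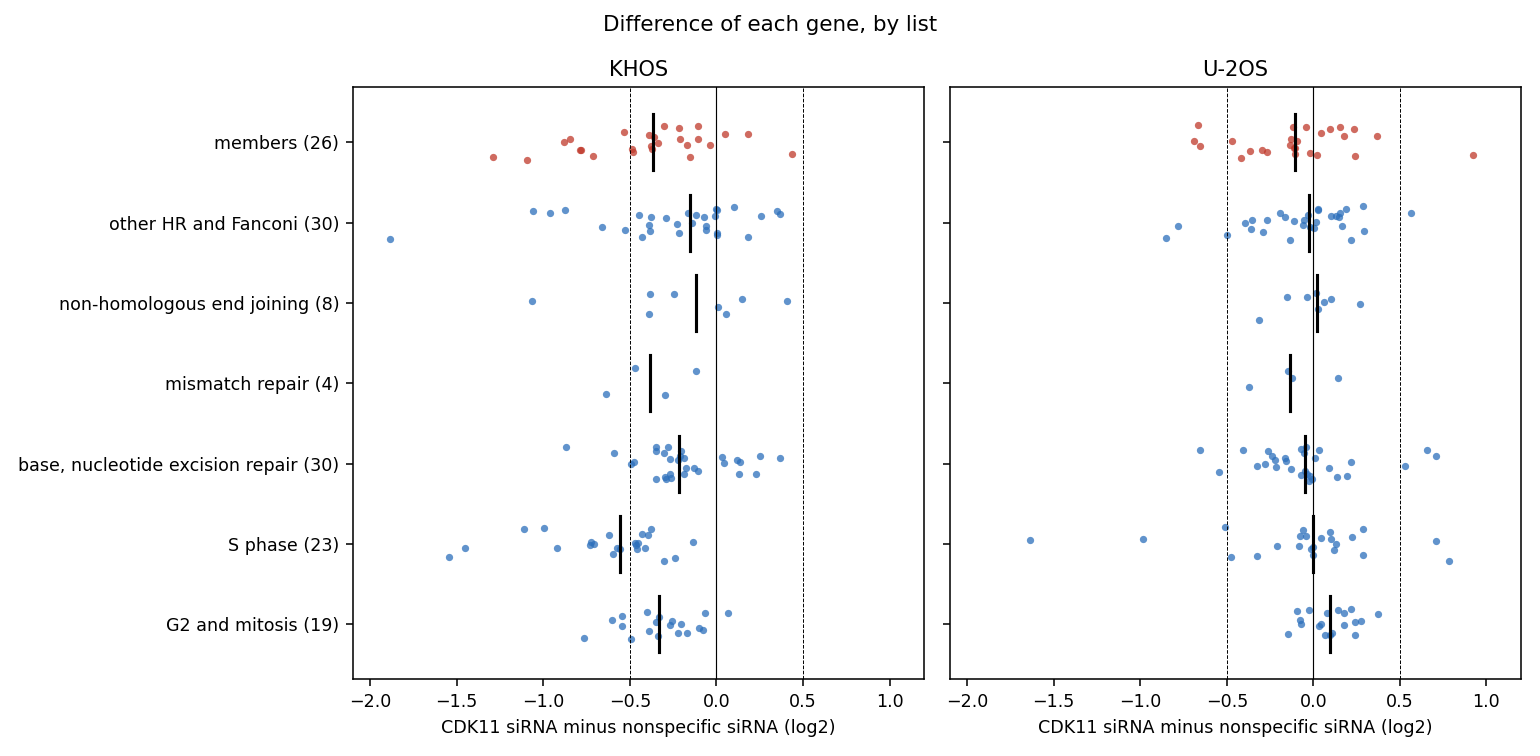
Difference of CDK11 siRNA minus nonspecific siRNA (horizontal, log2) of each gene in KHOS cells (left) and U-2OS cells (right), by list, with the number of genes in brackets. Points are genes, black bars are medians and dashed lines mark -0.5 and 0.5, and in KHOS cells the S phase median (-0.56) lies left of the members' median (-0.36).

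Of the 7 members below both controls in both lines by more than the controls differ, 4 promoters are shown, those of BRCA1, BRIP1 and EXO1, which hold motif matches, and that of FANCL, which holds none. The sequences are from RefSeq on GRCh38.p14, run from 250 bases before to 50 bases after an annotated start, and were given for 23 of the 26 kept members. Capitals mark matches on either strand to 3 short motifs of genes active in dividing cells, TTTNNCGC (the E2F motif), TTTGAA (the CHR motif) and CCAAT, each searched on its own. BRCA1, at one of its annotated starts, is at chr17:43125315-43125614 on the minus strand and holds 1 CCAAT match. The BRCA1 window at another annotated start, chr17:43170278-43170577, is not shown and holds none of the 3 motifs. BRIP1, at chr17:61863479-61863778 on the minus strand, holds 1 CHR and 3 CCAAT matches. EXO1, at chr1:241847954-241848253 on the plus strand, holds 1 E2F match, and FANCL, at chr2:58241276-58241575 on the minus strand, holds none.
BRCA1: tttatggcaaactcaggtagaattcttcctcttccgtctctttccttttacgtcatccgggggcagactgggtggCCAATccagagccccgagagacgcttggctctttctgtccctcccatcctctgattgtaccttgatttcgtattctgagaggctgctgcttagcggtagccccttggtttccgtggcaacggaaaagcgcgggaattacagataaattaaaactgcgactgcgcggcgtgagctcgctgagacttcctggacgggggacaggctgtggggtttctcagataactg
BRIP1: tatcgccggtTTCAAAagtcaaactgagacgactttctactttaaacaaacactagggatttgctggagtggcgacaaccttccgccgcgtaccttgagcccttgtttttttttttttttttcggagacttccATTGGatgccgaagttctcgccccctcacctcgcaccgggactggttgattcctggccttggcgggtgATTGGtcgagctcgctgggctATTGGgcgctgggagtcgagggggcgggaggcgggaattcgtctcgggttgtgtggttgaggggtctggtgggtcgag
EXO1: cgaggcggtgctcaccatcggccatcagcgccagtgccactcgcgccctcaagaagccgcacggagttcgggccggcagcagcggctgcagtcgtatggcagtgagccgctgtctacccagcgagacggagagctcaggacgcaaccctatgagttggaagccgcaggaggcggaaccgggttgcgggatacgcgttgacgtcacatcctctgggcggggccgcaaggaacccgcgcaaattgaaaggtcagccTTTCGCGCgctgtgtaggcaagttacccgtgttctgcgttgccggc
FANCL: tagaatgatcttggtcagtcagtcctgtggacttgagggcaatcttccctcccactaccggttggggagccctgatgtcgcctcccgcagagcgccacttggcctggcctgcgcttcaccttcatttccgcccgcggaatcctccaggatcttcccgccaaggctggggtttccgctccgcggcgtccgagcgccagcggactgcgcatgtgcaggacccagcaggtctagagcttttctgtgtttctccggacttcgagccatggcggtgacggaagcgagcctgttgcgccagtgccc

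Over the 23 members, 4 held the E2F motif in at least 1 window (CHEK2, EXO1, FANCC and RMI1), against 8.23% of 27305 genes. CHR matches were in 5 members (ATM, BRIP1, FANCC, UBE2T and USP1), against 18.2% of genes, and CCAAT in 13, against 39.7% of genes. By window, these motifs were in 6.89%, 15.2% and 34.6% of 35116 windows. Of the 7 members below both controls in both lines by more than the controls differ, ATR, FANCB, FANCE and FANCL held none of the 3 motifs in their windows. A match is only a run of letters, and no match says only that those letters are not in the window.

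Gene length and difference were hardly related among the members. The 26 members had a median span of 60.5 kb in the RefSeq annotation, against 32.5 kb over 8874 genes. Across members, span and the difference of CDK11 siRNA from nonspecific siRNA correlated with r of -0.05 in KHOS cells and -0.02 in U-2OS cells, a description over 26 genes. Over all 8874 genes, r was 0.13 in KHOS and 0.09 in U-2OS cells. FANCB and BRIP1 span 183.55 and 184.39 kb, FANCE and FANCG 14.77 and 6.10 kb, and all 4 are among the members named above.

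Several kept probe sets were found for 8 members, and they did not always give the same direction. In KHOS cells, all probe sets of 5 members gave a lower level after CDK11 siRNA than after nonspecific siRNA, those of 1 member (NBN) were higher, and ATM and CHEK1 were mixed. In U-2OS cells the counts were 3 lower, 2 higher and 3 mixed (BARD1, FANCI and NBN). The widest range was 1.02, for ATM in KHOS cells, where the brighter probe set gave -0.17 and the dimmer 0.85. The 10 members with the largest mean difference, BRCA1 and FANCL among them, had a single kept probe set each.

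**Figure D4:**
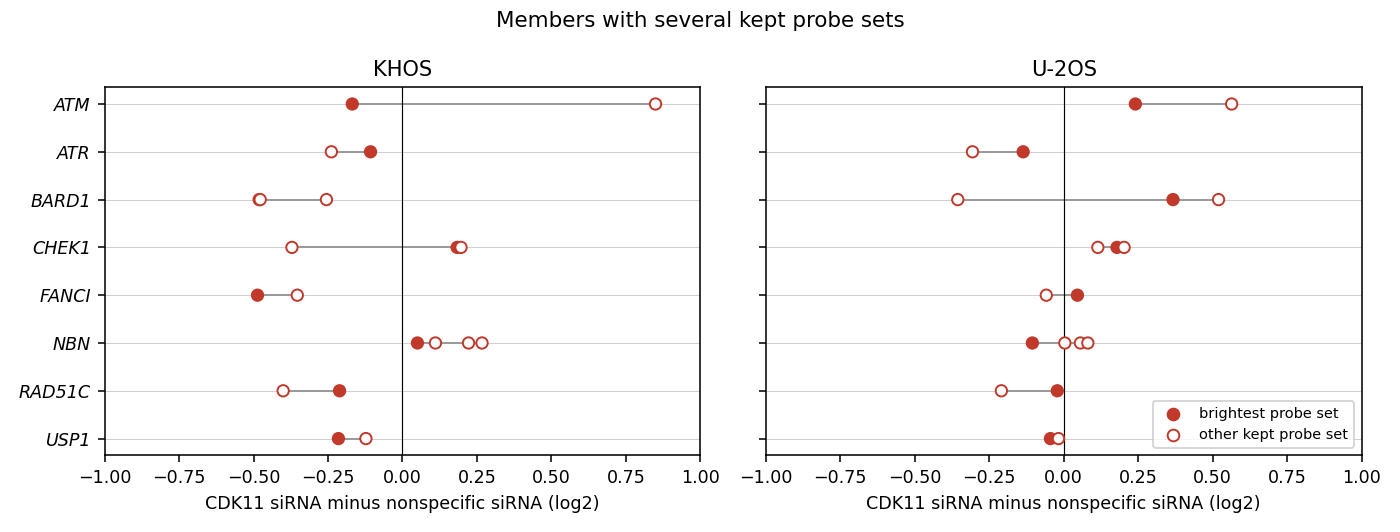
Difference of CDK11 siRNA minus nonspecific siRNA (horizontal, log2) for each kept probe set of the 8 members that have several, in KHOS cells (left) and U-2OS cells (right). Filled points are the brightest probe set, used for the gene, and ATM in KHOS cells shows the widest range, -0.17 and 0.85.

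The lines themselves differed in most members, as they did in most genes: limma called 6362 of all 8878 genes between them. The count of members called is thus not particular to them. Over the 6 arrays, limma called 18 of 26 members between KHOS and U-2OS cells, 9 higher and 9 lower in KHOS, where 38.3% of all genes were higher and 33.3% lower. RAD54B had the largest difference, 4.21 (SE 0.27, limma adjusted p = 0.000218), and each of its KHOS arrays was above each of its U-2OS arrays, which were below the limit. RAD51C, a strand exchange factor, had 8.20 with CDK11 siRNA, 8.42 with nonspecific siRNA and 8.55 without transfection in KHOS cells, and 10.88 with CDK11 siRNA, 10.90 with nonspecific siRNA and 11.01 untransfected in U-2OS cells. RAD51C was thus lower in KHOS on all 3 pairs of arrays, with a mean difference of -2.55 (SE 0.10, limma adjusted p = 5.67e-05). RAD51AP1, a DNA-binding protein of strand exchange, had 10.05 with CDK11 siRNA, 10.21 with nonspecific siRNA and 10.66 untransfected in KHOS cells and 11.71 with CDK11 siRNA, 11.55 with nonspecific siRNA and 11.55 untransfected in U-2OS cells, a difference of -1.30 (limma adjusted p = 0.00208).

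Kinases and their effectors split by line as well. ATR, the kinase of stalled replication, had 10.15 with CDK11 siRNA, 10.26 with nonspecific siRNA and 10.28 untransfected in KHOS cells and 9.01 with CDK11 siRNA, 9.14 with nonspecific siRNA and 9.12 untransfected in U-2OS cells, a difference of 1.14 (limma adjusted p = 0.000408). CHEK2, the effector kinase of ATM, had 5.90 with CDK11 siRNA, 6.01 with nonspecific siRNA and 5.92 untransfected in KHOS cells, all below the limit, and 7.11 with CDK11 siRNA, 6.88 with nonspecific siRNA and 7.22 untransfected in U-2OS cells, a difference of -1.13 (limma adjusted p = 0.00114). ATM had 7.91 with CDK11 siRNA, 8.08 with nonspecific siRNA and 8.22 untransfected in KHOS cells and 7.30 with CDK11 siRNA, 7.06 with nonspecific siRNA and 7.40 untransfected in U-2OS cells (0.82, limma adjusted p = 0.00279). ATR and ATM were thus higher in KHOS and CHEK2 lower, and with the mean of the 2 kept probe sets of ATM its difference was 0.48. CHEK1, the effector of ATR, had 9.20 with CDK11 siRNA, 9.01 with nonspecific siRNA and 9.19 untransfected in KHOS cells and 9.61 with CDK11 siRNA, 9.43 with nonspecific siRNA and 9.92 untransfected in U-2OS cells (-0.52, limma adjusted p = 0.0112). The sign of CHEK1 turned with the mean of its 3 probe sets, which gave 0.03.

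The MRE11 partner NBN had 11.75 with CDK11 siRNA, 11.70 with nonspecific siRNA and 11.98 untransfected in KHOS cells and 10.20 with CDK11 siRNA, 10.30 with nonspecific siRNA and 10.55 untransfected in U-2OS cells, a difference of 1.46 (limma adjusted p = 0.000237). With the mean of its 4 kept probe sets the difference of NBN was 0.62. USP1 had 12.74 with CDK11 siRNA, 12.95 with nonspecific siRNA and 12.96 untransfected in KHOS cells and 11.92 with CDK11 siRNA, 11.97 with nonspecific siRNA and 12.21 untransfected in U-2OS cells (0.85, limma adjusted p = 0.00147). FANCB was also higher in KHOS, by 1.21 (limma adjusted p = 0.00118). In these 3 genes each KHOS array was above each U-2OS array. FANCC, a core subunit, had 5.57 with CDK11 siRNA, 5.93 with nonspecific siRNA and 6.36 untransfected in KHOS cells and 6.20 with CDK11 siRNA, 6.17 with nonspecific siRNA and 6.99 untransfected in U-2OS cells (-0.50, limma adjusted p = 0.0167). FANCC was kept only through the untransfected U-2OS array, the highest of its values, so its call rests on dim signal and on that array. FANCI had 10.19 with CDK11 siRNA, 10.68 with nonspecific siRNA and 10.64 untransfected in KHOS cells and 9.96 with CDK11 siRNA, 9.91 with nonspecific siRNA and 10.16 untransfected in U-2OS cells (0.49, limma adjusted p = 0.0243). BLM, the helicase, had 8.26 with CDK11 siRNA, 8.64 with nonspecific siRNA and 8.62 untransfected in KHOS cells and 8.04 with CDK11 siRNA, 8.13 with nonspecific siRNA and 8.29 untransfected in U-2OS cells (0.36, limma adjusted p = 0.0298). The ranges of the lines overlapped for FANCC and BLM and did not for FANCI.

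The remaining calls were lower in KHOS for BRIP1 (-0.65), FANCL (-0.65), PALB2 (-0.50) and EXO1 (-0.44) and higher for BRCA1 (0.51), with limma adjusted p between 0.0133 and 0.0389. BRCA1 differed between KHOS and U-2OS cells by 0.10 on the CDK11 siRNA arrays, 0.73 on the nonspecific siRNA arrays and 0.70 on the untransfected arrays. Without 1 array at a time, 13 or 14 members were called, and 10 were called in all 6 such fits: ATM, ATR, CHEK1, CHEK2, FANCB, NBN, RAD51AP1, RAD51C, RAD54B and USP1. With transfection as block, leaving out the KHOS or the U-2OS array of a transfection gives the same fit. The 6 fits thus come in equal pairs and are not 6 separate checks. BLM lost its call in every such fit. Of the others, BRCA1 and FANCI lost it without the nonspecific siRNA or the untransfected array of either line, BRIP1 without the nonspecific siRNA array, PALB2 without the CDK11 siRNA array, EXO1 and FANCL without either of these 2, and FANCC without the CDK11 siRNA or the untransfected array. The line difference of EXO1 was -0.28 and that of FANCL -0.41 without a CDK11 siRNA array. RAD54L, RAD50, FANCE, FANCM, BARD1, RMI1, UBE2T and FANCG were not called in the fit of all 6 arrays, with differences from -0.31 (RAD54L) to 0.40 (RAD50). Of these, BARD1 gained a call without the CDK11 siRNA array of either line, and RAD50 without the nonspecific siRNA array. RAD50 was also called with the prior variance that follows the level.

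**Figure D5:**
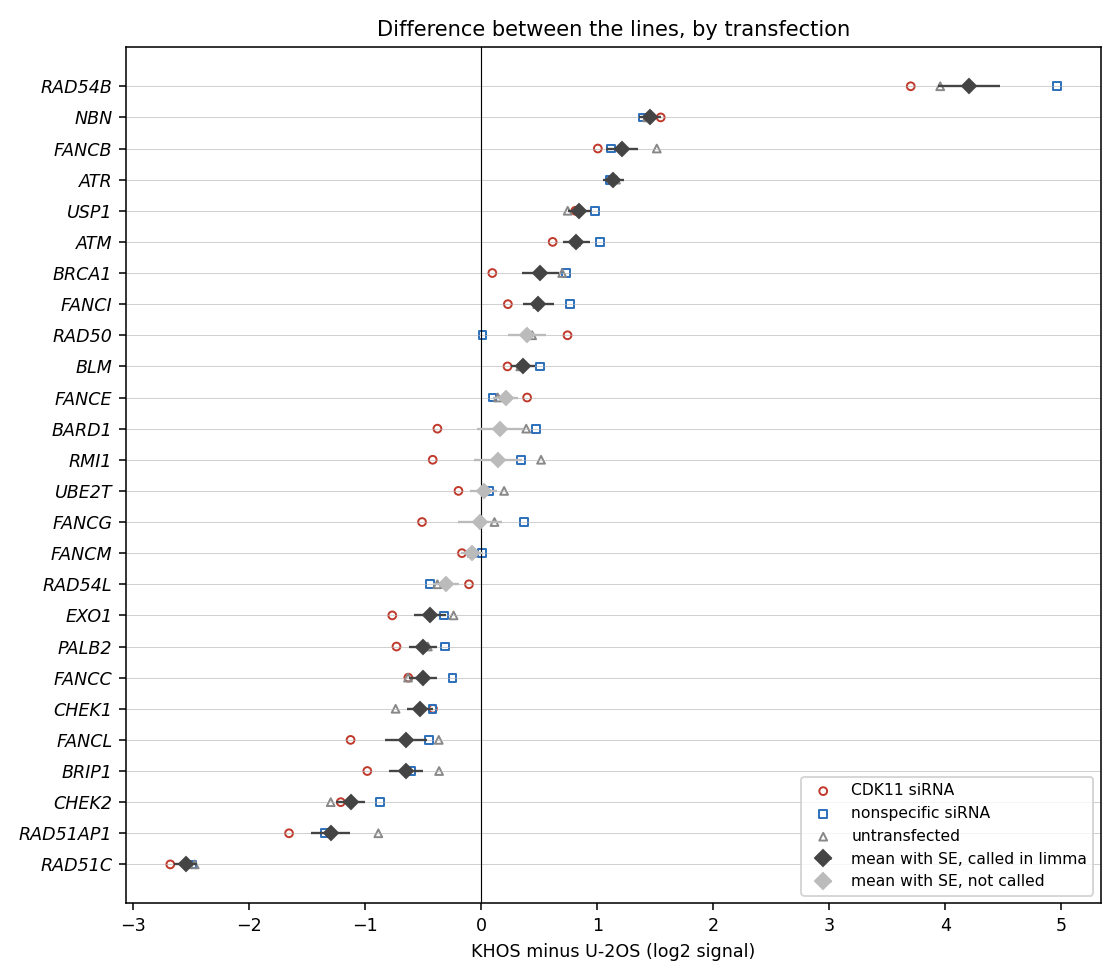
KHOS minus U-2OS difference in log2 signal (horizontal) of the 26 members, sorted, for each transfection (open symbols) and as the mean with its SE from limma (diamonds, dark where the adjusted p is under 0.05). RAD54B (4.21) and RAD51C (-2.55) lie at the ends, and the 3 open symbols of BRCA1 spread from 0.10 to 0.73.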

How the data were processed

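RNA of 6 cultures was measured on Affymetrix U133 Plus 2.0 arrays, and the values deposited by the authors are on the log2 scale, from gcrma (version not given in the sources used here), which corrects background by base content and normalises the arrays together. Depth has no meaning for arrays, and 1 array for each condition and line limits the precision. Probe sets were named from the platform annotation: 41097 had 1 gene symbol, 1801 several and 11777 none, and only the first were used. Here, probe sets above a signal of 100 on at least 1 array were kept, the one with the highest mean stood for its gene, and differences within a line were taken without a test, with 0.5 log2 units as the bound. limma 3.58.1 (R 4.3.3) was fitted to 8878 genes with line as block for transfections and transfection as block for lines, with Benjamini-Hochberg adjustment over all genes and 0.05 as the limit. The method was tested on simulated data. All 6 levels were printed for the 10 members with the largest mean difference of CDK11 siRNA from nonspecific siRNA and for members called between the lines. Members and lists were chosen with earlier results of these data known, and the comparison with the gap between controls was added after the values were seen. The p-values for transfections measure only how differences vary between 2 lines of 1 array per condition. Those for KHOS against U-2OS measure only how the line difference varies over the transfections, not over repeat cultures of a line. Alternatives were other filters, bounds, probe set rules, normalization, variance priors and blocks.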

Additional observations from a re-analysis of the deposited data

How the results depend on the processing

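With a bound of 1 log2 unit, the members lower with CDK11 siRNA numbered 2 against nonspecific siRNA and 4 against untransfected KHOS cells, and 0 and 0 in U-2OS cells, while nonspecific siRNA against untransfected U-2OS cells gave 1. With a filter of 8 in place of 6.64, which leaves 20 members, U-2OS cells gave 1 member lower against nonspecific siRNA, 1 against untransfected cells and 1 for nonspecific siRNA against untransfected cells. Quantile normalization gave 1 member lower for nonspecific siRNA against untransfected KHOS cells in place of 0. The variance prior with a trend called 1 member for CDK11 siRNA against untransfected cells. The higher bound and filter leave fewer members to count, and the cause of the other changes was not tested. The other 57 counts stayed within 1.5 times their value, among them 13 to 14 members called between the lines without 1 array at a time. Fits without the KHOS or the U-2OS array of a transfection are equal, so these counts come in pairs. CHEK1 turned sign between KHOS and U-2OS cells to 0.035 with the mean of its probe sets, and the line differences of NBN and ATM were 0.62 and 0.48 with the mean of theirs. In 42 of 195 refits of the members called between the lines, which include those equal pairs, the call was lost with the direction kept. The 60 refits of single members and 30 of medians kept their direction, the medians within 0.1 log2 units and the single members within the residual SD. Most of those 60 could hardly move: these members have 1 kept probe set each, so its mean is the same value. Setting the median difference to 0 shifts them only by 0.0024 in KHOS and 0.0087 in U-2OS cells. Signal limits FANCB and RAD54B in U-2OS cells and CHEK2 and FANCC in KHOS cells, where all 3 arrays were below 6.64. Each of these genes was kept only through the line in which it is higher. In U-2OS cells FANCC passed the limit only on the untransfected array. FANCE passed it only on control arrays in both lines. The labels give no replicate numbers, so the line, or the transfection for the comparison of lines, was the block. Without that block, 0 members were called for each pair of transfections and 12 between the lines.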
